A study of Homo sapiens with 2 samples.

Results

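The PARP family and DTX3L were followed in Huh-7 cells, a human hepatoma line, after exposure to interferon-alpha. The members were the genes PARP1, PARP3, PARP4, PARP6, PARP8, PARP9, PARP10, PARP12, PARP14 and DTX3L, taken with every probe set that the array's annotation assigned to only 1 of them. This gave 10 genes out of 19775 with such a probe set, and 18 probe sets out of 41091. The treated culture was exposed for 6 hours to 100 U/mL of recombinant human IFN-alpha 2b, given in fresh medium after 24 hours of culture. The untreated culture received fresh medium without interferon, and its harvest time is not given in the sources used here. Each condition was 1 flask of the same cell line, 1 RNA sample and 1 array, so the comparison is unreplicated and is given without p-values. RNA was measured in bulk, so fewer cells carrying a transcript and less of it per cell cannot be told apart.

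PARP enzymes transfer ADP-ribose from NAD+ onto proteins and nucleic acids. Some, such as PARP1, build long chains at broken DNA and recruit repair proteins, while most of the others attach single units. A subset is known as interferon-stimulated in many cell types: PARP9, PARP10, PARP12 and PARP14, together with DTX3L, a ubiquitin ligase of the deltex family that forms a stable complex with PARP9. Type I interferon activates a transcription factor complex whose DNA-binding subunit is IRF9, and this complex recognises a short promoter sequence called the interferon-stimulated response element (ISRE).

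The promoters of the 4 members that were higher with interferon are shown first. A match to the core of the ISRE was found in all 4, with 1 match shared by PARP9 and DTX3L. None of the other 4 members with a promoter window held it. Of all counted genes (defined below) with a window, 62.5% of those at least 2-fold higher and 3.38% of those under 2-fold held it. Its absence from the 4 members under 2-fold is near that share and is no result about them. Sequences are from RefSeq on GRCh38.p14, and 8 of the 10 members matched by symbol, with 11 windows in all. PARP4 and PARP10 had no entry. A window holds the 250 bases before a transcript start and 50 bases from it onward. The ISRE core was searched on both strands as 2 copies of GAAA with any 2 bases between them. In each of the following lines 10 bases flank the core on either side, the core is in capitals and reads in the GAAA direction.
PARP9 and DTX3L, chr3:122564322-122564351, plus strand: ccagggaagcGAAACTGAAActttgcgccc
PARP14, chr3:122680800-122680829, plus strand: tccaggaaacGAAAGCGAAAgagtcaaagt
PARP12, chr7:140062942-140062971, plus strand: ggcgggaaacGAAACCGAAAgcggccccgg

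PARP9 and DTX3L lie head to head on chromosome 3. The DTX3L start and a PARP9 start on the opposite strand are 38 bases apart. The match in both windows is the same stretch of DNA. Counted from the first transcribed base as 1, it lies at -41 to -32 for PARP9 and at -6 to 4 for DTX3L. The PARP14 match lies at -29 to -20 and the PARP12 match at -10 to -1, on the strand opposite to the gene. The second PARP9 window, which belongs to another transcript start, has no match. PARP14 also has a match to the palindrome TTCNNNGAA, the consensus of the gamma-activated site (GAS), at -40 to -32, which reads TTCCAGGAA and does not overlap its ISRE core. The windows of PARP1, PARP3, PARP6 and PARP8 hold neither motif. Over all promoter windows in the table, 3.57% (1255 of 35116) hold the ISRE core and 7.66% hold the GAS consensus. A match is a description of letters and not evidence of binding.

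The longer stretches from 250 bases before the start to 20 bases from it are given for the plus-strand gene of the shared promoter, for PARP14 and PARP12, and for PARP1 as a member with no match. Each reads along the gene's own strand, with the ISRE core in capitals (as its reverse complement in PARP12).
DTX3L, chr3:122564088-122564357, plus strand: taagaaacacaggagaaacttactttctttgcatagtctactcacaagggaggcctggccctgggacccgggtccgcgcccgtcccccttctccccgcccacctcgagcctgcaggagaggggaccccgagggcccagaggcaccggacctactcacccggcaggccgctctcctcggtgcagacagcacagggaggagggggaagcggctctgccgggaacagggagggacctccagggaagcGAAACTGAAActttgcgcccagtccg
PARP14, chr3:122680589-122680858, plus strand: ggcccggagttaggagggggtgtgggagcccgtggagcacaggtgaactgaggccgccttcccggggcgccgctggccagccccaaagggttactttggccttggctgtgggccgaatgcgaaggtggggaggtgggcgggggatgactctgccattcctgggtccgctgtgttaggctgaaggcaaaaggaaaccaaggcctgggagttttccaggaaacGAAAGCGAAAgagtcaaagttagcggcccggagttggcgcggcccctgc
PARP12, chr7:140062932-140063201, minus strand: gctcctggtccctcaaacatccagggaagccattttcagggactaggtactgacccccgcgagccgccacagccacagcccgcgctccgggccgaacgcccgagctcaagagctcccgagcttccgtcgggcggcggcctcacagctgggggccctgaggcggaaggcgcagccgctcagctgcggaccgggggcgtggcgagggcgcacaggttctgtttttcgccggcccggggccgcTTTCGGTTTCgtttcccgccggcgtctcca
PARP1, chr1:226408074-226408343, minus strand: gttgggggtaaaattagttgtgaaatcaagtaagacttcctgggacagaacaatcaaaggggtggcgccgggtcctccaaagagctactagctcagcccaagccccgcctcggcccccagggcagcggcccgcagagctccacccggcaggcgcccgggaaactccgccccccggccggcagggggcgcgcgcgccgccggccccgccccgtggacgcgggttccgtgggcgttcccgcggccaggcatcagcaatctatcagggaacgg

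**Figure D1:**
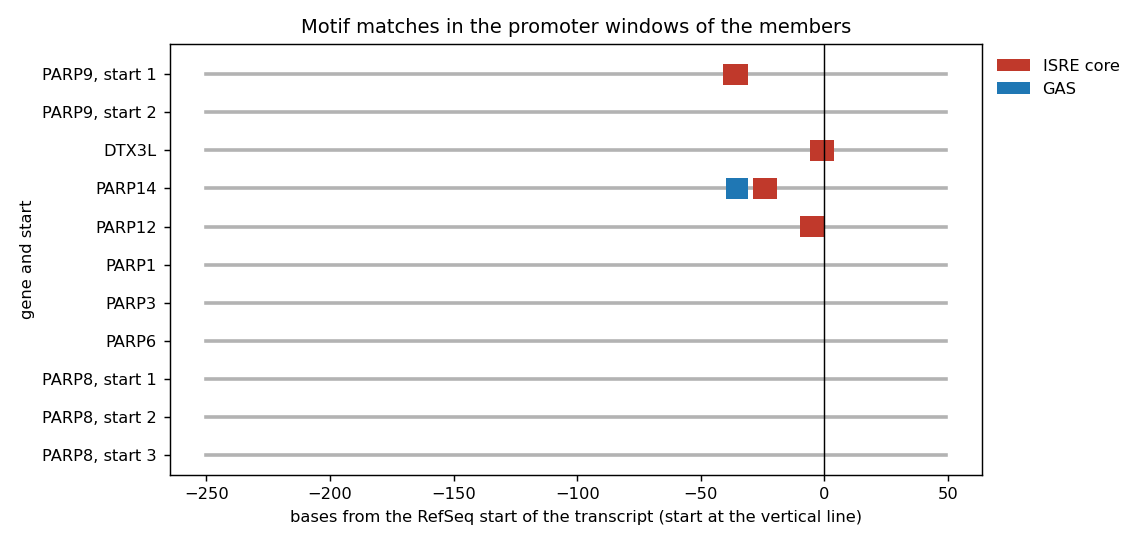
Position of matches to the ISRE core (red) and the GAS consensus (blue) in the promoter windows of the 8 members with an entry, in bases from the transcript start. Matches lie near the start in PARP9, DTX3L, PARP14 and PARP12, from -41 to 4, and the windows of the other 4 genes and the second PARP9 start are empty.

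The values below are the authors' intensities, 1 per probe set and array on a linear scale. An intensity of 48.5, the 50th percentile of all values on both arrays, served as a floor. Lower values were raised to it before log2 ratios of interferon over untreated were taken, and a ratio whose untreated value was below the floor is given as "at least". Intensities of different probe sets are not comparable with each other. A known response was present: IRF9 had intensities of 2143 with interferon and 106.7 untreated, and the ubiquitin-like ISG15 had 8332 with interferon and 351.2 untreated. MX1, an antiviral GTPase, had 818.2 with interferon and was below the floor untreated, at 44.0. The hepatocyte marker ALB and the hepatoma marker AFP were bright on both arrays, with ALB at 14588 with interferon and 12212 untreated. Of 15 leukocyte, endothelial and stellate markers, 14 had a probe set, and 6 were below the floor on both arrays, among them PTPRC, CD3E, KDR and CDH5. The other 8 were above the floor on both arrays, among them LYZ at 2271 with interferon and 2064 untreated, COL1A2 at 559.9 with interferon and 544.3 untreated, COL1A1 at 186.6 with interferon and 176.3 untreated, PECAM1 at 152.4 with interferon and 158.0 untreated, and PDGFRB at 132.3 with interferon and 133.8 untreated. None of the 8 was 2-fold changed.

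Of the 10 member genes, 4 were higher with interferon by 2-fold or more and 0 were lower by that much. Among the 13269 genes that exceeded the floor on 1 array or both, 0.43% were higher by 2-fold or more and 0% were lower by as much. By role, 4 of the 5 interferon-linked genes and 0 of the 5 DNA-repair and other genes were past 2-fold. The median log2 ratio was 3.23 in the interferon-linked genes and 0.15 in the other 5 members, a difference of 3.08, against 0.03 over all counted genes. At the level of probe sets, 16 of the 18 exceeded the floor on 1 array or both, and 5 of these were at least 2-fold higher, against a background of 0.364% of 23871 probe sets.

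PARP9 carries macrodomains, folds that bind ADP-ribose. Its probe set 223220_s_at, the one used for the gene, had an intensity of 660.5 with interferon and 67.0 untreated. This is 9.86-fold higher, and it placed PARP9 at rank 10 among the 13269 counted genes. This rank and those below take each "at least" ratio at its bound, so genes with such ratios could stand higher. Of the counted genes, 57 were at least 2-fold higher, against 41 of those above the floor on both arrays. The other PARP9 probe set, 227807_at, had 218.1 with interferon and 38.5 untreated, which is below the floor, so that it was at least 4.50-fold higher. Both probe sets of the gene were therefore past 2-fold and in the same direction.

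DTX3L, the ligase partner of PARP9, was read by 1 probe set, 225415_at. It had an intensity of 1905 with interferon and 202.7 untreated, or 9.40-fold higher (log2 3.23, rank 13). The log2 ratios of PARP9 (3.30) and DTX3L thus differed by 0.07, less than the robust SD of log2 ratios over genes above the floor on both arrays, which was 0.13. That SD describes the spread between genes on these arrays and is no replicate error. The closeness depends on the setting: the log2 ratios were 2.81 for PARP9 and 3.05 for DTX3L with a pseudocount of 32 in place of the floor, and 2.74 for PARP9, in part a bound, and 3.23 for DTX3L with the median over probe sets.

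PARP14, a macrodomain protein that attaches single ADP-ribose units, is known as a cofactor of interleukin-4 signalling in mouse B cells. Its probe set 224701_at had 671.3 with interferon and 69.8 untreated, or 9.61-fold higher (log2 3.27, rank 12). Its other probe set, 232610_at, did not reach the floor on either array, at 27.9 with interferon and 29.7 untreated, and gave no ratio. The PARP14 value therefore rests on 1 probe set.

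PARP12, which carries CCCH zinc fingers like those of the antiviral protein ZAP, was read by 1 probe set, 218543_s_at. The intensity was 845.3 with interferon and 160.4 untreated, a ratio of 5.27-fold (log2 2.40, rank 25). It was the lowest of the 4 ratios past 2-fold. On the log2 scale it lay 0.83 below that of DTX3L, with each gene read by 1 probe set. Probe sets of 1 gene can differ by more, as those of ZAP (ZC3HAV1) ran from 0.84 to 2.79. Whether PARP12 was raised less than DTX3L was not tested. If probe sets of the _s_at type are set aside, PARP12 has no value.

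PARP10, an enzyme that attaches single ADP-ribose units, is the interferon-linked member that did not reach 2-fold. Probe set 226401_at had 137.2 with interferon and 100.05 untreated, or 1.37-fold higher (log2 0.46, rank 144). Its other 3 probe sets had almost the same value on both arrays: 228669_x_at had 85.4 with interferon and 83.3 untreated, 229350_x_at had 93.7 with interferon and 92.1 untreated, and 238083_at had 86.6 with interferon and 85.6 untreated. Those 3 log2 ratios ran from 0.02 to 0.04. The probe sets of PARP10 therefore disagree, and the median over all 4 is a log2 ratio of 0.03. All 4 were dim, the highest value being 2.83 times the floor.

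**Figure D2:**
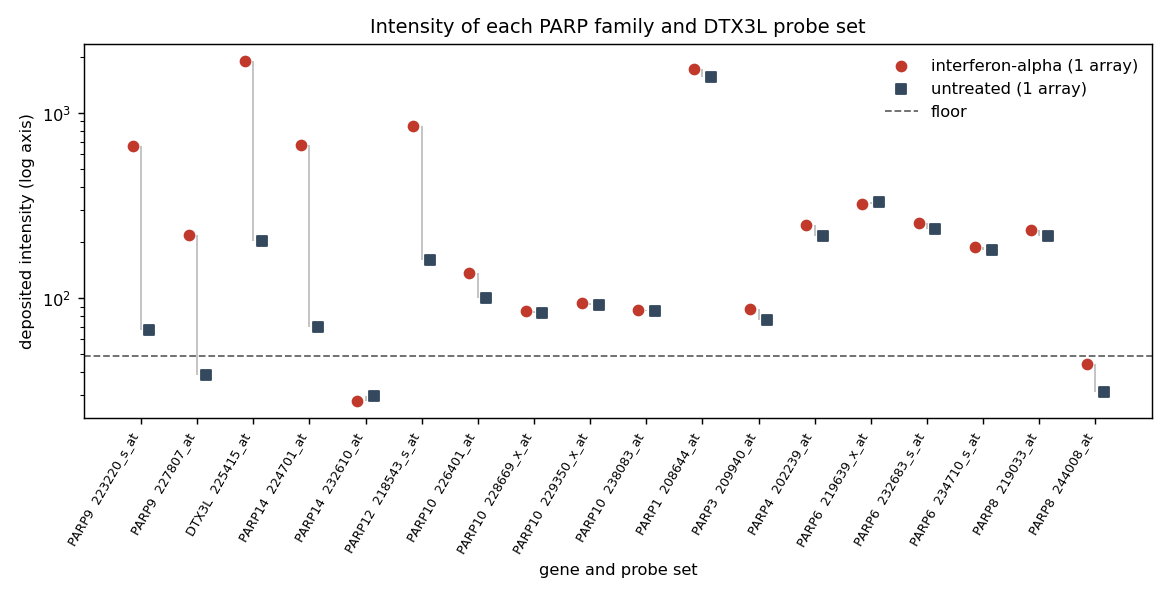
Intensity (log axis) of all 18 probe sets of the members with interferon-alpha (red circles) and untreated (dark squares), 1 array each, with the floor of 48.5 as a dashed line. The arrays stand far apart for both PARP9 probe sets, DTX3L, PARP14 224701_at and PARP12, and close together for the rest.

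Among the DNA-repair members, PARP1, the sensor of DNA breaks and main source of poly(ADP-ribose), had an intensity of 1729 with interferon and 1556 untreated, a log2 ratio of 0.15. PARP3, which acts in the joining of double-strand breaks, had 87.4 with interferon and 76.1 untreated, a log2 ratio of 0.20. PARP3 lies on chromosome 3 as PARP9, DTX3L and PARP14 do, but apart from them. Genes as bright as each of these had central 95% ranges of log2 ratios of -0.02 to 0.29 for PARP1 and -0.38 to 0.32 for PARP3, so both lay within.

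Of the other members, PARP4 belongs to the vault, a large ribonucleoprotein particle of the cytoplasm. It had 247.0 with interferon and 216.6 untreated, a log2 ratio of 0.19. PARP6, which attaches single ADP-ribose units, had 3 probe sets: 219639_x_at with 321.3 with interferon and 328.3 untreated, 232683_s_at with 254.8 with interferon and 235.9 untreated, and 234710_s_at with 188.8 with interferon and 181.5 untreated. Their log2 ratios of -0.03, 0.11 and 0.06 lay on either side of 0. PARP8, a relative of PARP6, had 234.0 with interferon and 216.4 untreated on 219033_at (log2 0.11), and its second probe set did not reach the floor on either array, at 43.9 with interferon and 31.2 untreated.

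When the hybridisation controls, and not the deposited scaling, set the level between arrays, 0.43 was taken off every log2 ratio, and PARP1, PARP3, PARP4 and PARP8, slightly above 0 as deposited, had log2 ratios between -0.31 and -0.23. The same shift turns every log2 ratio between 0 and 0.43, that of the median gene included, so it says nothing particular to these members. PARP9, DTX3L, PARP14 and PARP12 stayed past 2-fold there. Genes measured above the floor in both conditions were also sorted into 10 equal groups by mean brightness. Of the 15 member probe sets that exceeded the floor in both conditions, 10 lay within the central 95% of log2 ratios of the group of like brightness. The other 5, all above it, were PARP9 223220_s_at, DTX3L, PARP14 224701_at, PARP12 and PARP10 226401_at, whose value of 0.46 exceeded the upper end of 0.37.

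**Figure D3:**
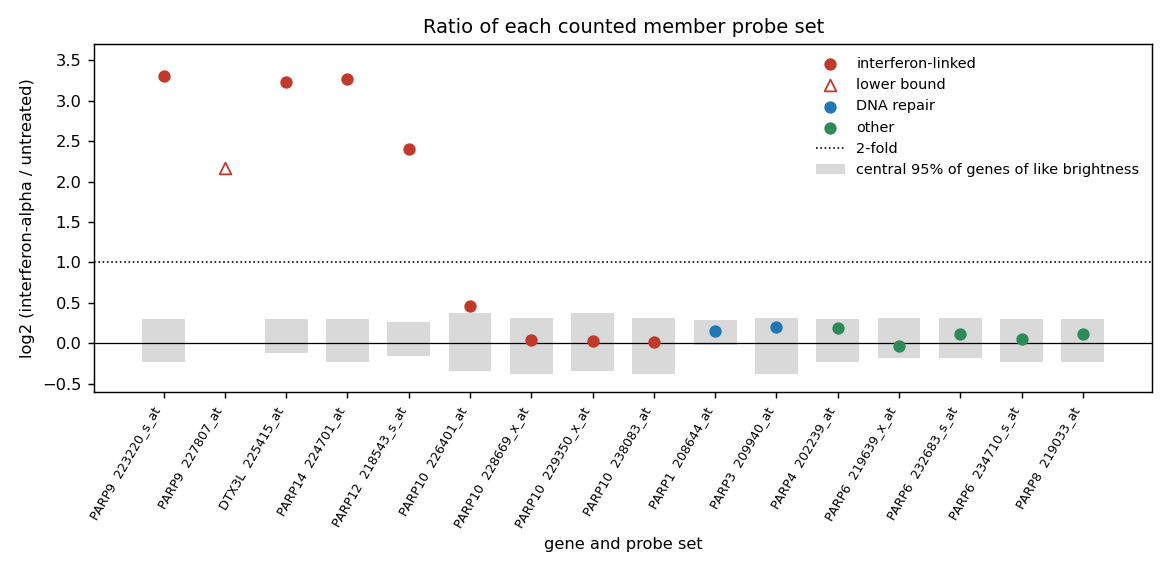
Log2 ratio of interferon-alpha over untreated for the 16 counted probe sets, coloured by role, with the central 95% of genes of like brightness as grey bars for the 15 that exceeded the floor in both conditions. The 4 genes past 2-fold lie at 2.40 to 3.30 (the triangle, with no bar, is a lower bound of 2.17), PARP10 226401_at lies just above its bar and 10 probe sets lie inside theirs.

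The 3 members with the highest ratios are close neighbours. In RefSeq's order of protein-coding genes on chromosome 3 (GRCh38.p14), PARP9, DTX3L, PARP15 and PARP14 follow each other. PARP15, a macrodomain relative between DTX3L and PARP14, was below the floor on both arrays, with 15.2 on each. The 6 protein-coding genes on either side of the group were examined as well. Of these and PARP15, 11 were counted and 0 were at least 2-fold changed. With 0.43% of all counted genes past 2-fold higher and 0% lower, that count is near the background and is no result about the neighbours. Their log2 ratios ran from -0.13 (SEC22A) to 0.17 (HSPBAP1), with a median of 0.07. KPNA1, next to PARP9, had 507.4 with interferon and 452.3 untreated, and HSPBAP1, next to PARP14, had 110.3 with interferon and 97.8 untreated. Among the genes counted there, those at least 2-fold higher were PARP9, DTX3L and PARP14.

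**Figure D4:**
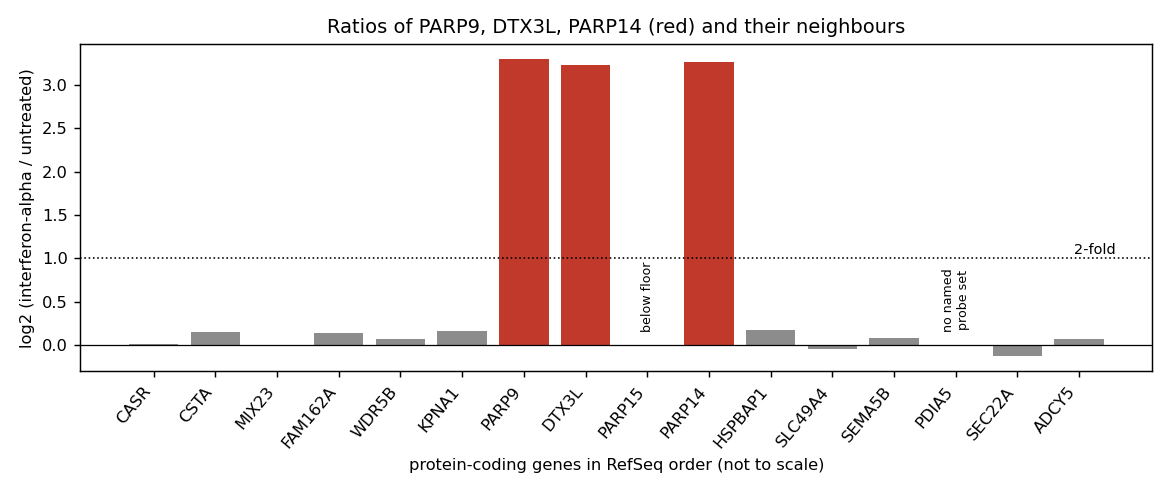
Log2 ratio of interferon-alpha over untreated for PARP9, DTX3L and PARP14 (red) and 13 protein-coding neighbours (grey), in RefSeq order on chromosome 3, not to scale. The members stand at 3.23 to 3.30, the counted neighbours between -0.13 and 0.17.

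The rest of the PARP family was examined as a list of 8 genes. Of 6 counted, 1 was at least 2-fold higher and 0 lower, against 0.43% and 0% of all counted genes. The median log2 ratio was 0.07, against 0.03 over all counted genes. The gene past 2-fold was ZC3HAV1 (ZAP or PARP13, an RNA-binding protein without transferase activity that restricts viruses), with 2633 with interferon and 444.7 untreated, or 5.92-fold higher. Its 3 counted probe sets had log2 ratios from 0.84 to 2.79, and 2 of them were past 2-fold. PARP2, which shares DNA-break signalling with PARP1, had 1182 with interferon and 1163 untreated (log2 0.02). Its 3 counted probe sets ran from -0.10 to 0.12. The tankyrases TNKS and TNKS2, which act in Wnt signalling and at telomeres, had log2 ratios of 0.11 and 0.08. The 2 counted probe sets of TNKS differed in sign, at -0.13 and 0.11, and the 3 of TNKS2 ran from 0.05 to 0.15. TIPARP, a target of the aryl hydrocarbon receptor, had 0.07, and PARP16, an enzyme of the endoplasmic reticulum membrane, had -0.17. PARP11 and PARP15 did not reach the floor on either array.

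Of the genes that remove or read ADP-ribose, 15 were counted and 0 were at least 2-fold changed, with a median log2 ratio of 0.06. With 0.43% of all counted genes past 2-fold higher and 0% lower, this count is near the background and is no result about the list, and the same holds for the repair, NAD+, deltex and vault genes that follow. By the 1 probe set used for each gene, the highest was ADPRS, a hydrolase that takes ADP-ribose off serine. It had 588.9 with interferon and 442.5 untreated (log2 0.41). The lowest was MACROD2, a macrodomain hydrolase, with 88.5 with interferon and 107.0 untreated (log2 -0.27). Some probe sets not used for their gene lay beyond these, up to 0.45 in CHD1L and down to -0.40 in MACROH2A1. PARG, the glycohydrolase that degrades poly(ADP-ribose), had a log2 ratio of 0.04.

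Of the partners of PARP1 in DNA repair, 0 of 16 counted genes were at least 2-fold changed (background 0.43% higher and 0% lower), and the median log2 ratio was 0.08. By the probe set used for each gene, the ratios ran from -0.12 in LIG3, the ligase of single-strand break repair, to 0.30 in PRKDC. PRKDC is the catalytic kinase of end joining. A probe set of TDP1 not used for the gene was lower, at -0.20. HPF1, the cofactor that directs PARP1 to serine, had 329.2 with interferon and 309.3 untreated (log2 0.09), and the scaffold XRCC1 had 240.1 with interferon and 245.3 untreated (log2 -0.03).

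For NAD+, the substrate of these enzymes, 0 of 15 counted genes of supply and use were past 2-fold (background 0.43% higher and 0% lower), with a median log2 ratio of 0.06. NAMPT, the rate-limiting enzyme of NAD+ salvage, was the highest, with 460.9 with interferon and 360.7 untreated (log2 0.35), and its 3 counted probe sets ran from 0.28 to 0.42. SARM1, an NAD+ hydrolase, was the lowest of the measured gene ratios at -0.09, though a probe set of NAPRT not used for the gene had -0.27. The 4 deltex genes related to DTX3L had log2 ratios from -0.31 (DTX1) to 0.01 (DTX3) and a median of -0.09, so that none was past 2-fold. MVP, the major vault protein and companion of PARP4, had 141.8 with interferon and 147.4 untreated (log2 -0.06).

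**Figure D5:**
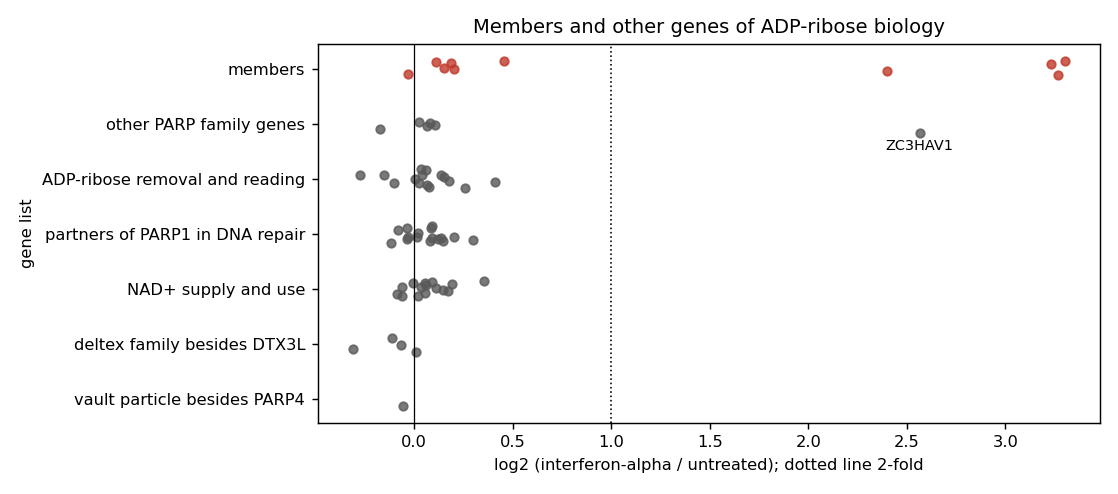
Log2 ratio of interferon-alpha over untreated for each counted gene, 1 point a gene, in the members (red) and in the lists of related genes (grey), with 2-fold as a dotted line. Past 2-fold lie 4 members, at 2.40 to 3.30, and ZC3HAV1 at 2.57.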

How the data were processed

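RNA of 2 Huh-7 cultures was measured on 2 Affymetrix arrays, from 6 µg of total RNA each per the labels' protocols. The intensity values are the authors' deposited ones. They were made with GCOS per the submitters' processing notes, and how background, summary and scaling were handled is not given in the sources used here. There were 54675 probe sets including 62 controls. Names came from the platform annotation, and 41037 of the 41091 with 1 gene had their symbol matched to RefSeq through the gene ID. Medians over the probe sets other than controls were 48.0 with interferon and 48.8 untreated. The number of arrays limits the precision.

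Values below the 50th percentile were raised to it, and log2 ratios were taken. Each gene took the value of its brightest probe set, by mean log2 intensity over both arrays. Calls are at 2-fold, with no test. Both intensities of every probe set of the 10 members are given. From each list the genes past 2-fold and the highest and lowest measured ratio are named, with some background examples chosen after their values were seen, as were the motifs and the neighbours. A planned naming of genes nearest in intensity was dropped, since levels of different probe sets are not comparable. The members and lists were chosen with earlier results of these data known. Alternatives changed the floor, the scaling and the choice of probe set. Python 3.11.15, pandas 2.3.3 and statsmodels 0.14.6 were used, and the procedure was tested on simulated data.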

Additional observations from a re-analysis of the deposited data

How the results depend on the processing

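Across 11 alternatives to the floor, the scaling or the choice of probe set, the count of member genes at least 2-fold higher was 4 in all but 1 and the count at least 2-fold lower was 0 in all. Leaving out probe sets ending in _x_at or _s_at removed PARP12 and PARP6 altogether, so that 3 of 8 genes and 3 of 9 probe sets were past 2-fold. The difference between the medians of the interferon-linked and the other members was at least 2.53 there and at least 2.58 with the median over probe sets, since both rest on the lower bound of PARP9 227807_at, and 2.64 with a pseudocount of 32 in place of a floor. PARP9 ran from a lower bound of 2.17 to 3.33 on the log2 scale, PARP14 from 2.79 to 3.29, DTX3L from 2.81 to 3.26 and PARP12 from 1.97 to 2.42. PARP10 ran from 0.03 to 0.48. Of 108 single-gene values under alternatives, 90 lay within 0.13 of the deposited-scale value, 18 lay farther and 0 of the genes past 2-fold changed direction. No paired analysis was possible because each condition has 1 array. Ratios of probe sets near the floor are limited by their low signal.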

Other observations

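The promoter letters were also counted over all counted genes, members included, as shares with no test. The 4 members past 2-fold are therefore part of the shares below. Of the counted genes at least 2-fold higher with interferon, 48 had a promoter window and 30 of these (62.5%) held the ISRE core, whereas 359 of 10635 counted genes under 2-fold (3.38%) held it. The GAS consensus was in 15 of the 48 (31.3%) and in 8.35% of the genes under 2-fold. Among genes named above, ISG15 and MX1 held the ISRE core, IRF9 and ZC3HAV1 held the GAS consensus but no ISRE core, and MVP held an ISRE core at a log2 ratio of -0.06. PARP2 and PARP15 held the GAS consensus, and PARP15 was below the floor on both arrays.

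Some deposited values fall on a shared grid. In 4190 of 54613 probe sets (7.67%) the arrays differed by a whole multiple of 0.5, within 1e-05, and 2361 of these had the same value on both. PARP6 219639_x_at, with 321.3 with interferon and 328.3 untreated, is the 1 member probe set among the 1889 that share the most common remainder of 0.316 after division by 0.5 on both arrays. The lowest untreated intensity among those 1889 was 77.8. HSPBAP1, PARP16 and PARG, named above but not members, also show the remainder of 0.316 on both arrays. PARP15 is among the probe sets with the same value on both arrays.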
